A study of Mus musculus with 4 samples.

Results

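The genes for subunits of the mitochondrial respiratory chain differed little from untreated in fibroblasts exposed to 3 activators of chaperone-mediated autophagy (CMA), the route by which single cytosolic proteins are taken into lysosomes. Members were all genes with a curated RefSeq messenger RNA accession on the array and a mouse symbol starting with Ndufa, Ndufb, Ndufc, Ndufs or Ndufv, with Sdha to Sdhd, with Uqcr, with Cox4 to Cox8 or with Atp5. This found 97 genes, all but Cox6a2 among the 36838 gene names with a value on all 4 arrays. Of them, 85 code for subunits and 12 (Ndufaf1 to Ndufaf8 and Sdhaf1 to Sdhaf4) for assembly factors that are not part of the finished complexes. The subunits were 38 genes of complex I, 4 of complex II, 8 of complex III, 18 of complex IV and 17 of complex V.

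The samples were 4 cultures of NIH-3T3, an established mouse fibroblast line, labelled wild type and grown to confluency in medium with serum. They held untreated cells and cells given AR7, CA39 or CA77 at 20 µM for 24 h. Each group is 1 culture on 1 array, so no test was possible, no p-value is given, and every difference compares 2 arrays without a replicate check. The compounds were dissolved in DMSO and the control label names no treatment, so compound and vehicle cannot be told apart in what the treated arrays share. On the slide, row 1 held the untreated array and row 2 the others, and CA77 was read in another scan than the rest, so these cannot be told apart from treatment either. In a culture, fewer cells of a type and less RNA per cell cannot be told apart.

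The respiratory chain passes electrons from NADH (complex I) and succinate (complex II) through complex III and cytochrome c to oxygen at complex IV. Complexes I, III and IV pump protons across the inner mitochondrial membrane, and complex V, the ATP synthase, uses their return to make ATP. Most subunits are coded in the nucleus, imported and joined with a few that are coded in mitochondrial DNA, so the nuclear genes of all complexes are often regulated together. Known regulators are the factors NRF1, GABP and YY1 and the coactivators PGC-1α and PGC-1β.

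The promoters, which the choice of members did not use, were searched for the letters of these factors. RefSeq promoter windows, 250 bases before to 50 bases after a gene's start, were at hand for 69 of the 84 subunit genes with a value, in 74 windows. The letters CGCATGC on either strand, the core of the NRF1 motif, stood in 11 of these windows (14.9%), against 5.88% of 13207 windows of genes detected on all 4 arrays and 3.58% of all 32851 windows, so most subunit windows lacked them. The ETS motif CCGGAAG, which GABP recognises, stood in 23.0% of subunit windows against 16.2% of those of detected genes, and the YY1 motif AAGATGG in 14.9% against 7.09%. The TATA box letters TATAAA, taken as a comparison, stood in 12.2% of subunit windows, 8.36% of those of detected genes and 13.6% of all windows. All motifs were searched on both strands and the ETS and YY1 letters can share AAG, the windows were not matched for base composition, and a match is not a binding site.

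To show what a match looks like, 30 bases around the NRF1 letters are given for the brightest gene of each complex that holds them upstream of its start. The letters were shortened after a first search, and these genes were picked because they hold them. In complex III, Uqcr11 and Uqcrc1 hold the letters, but across or after the start, so no window is given. The letters are 5′ to 3′ on the strand of the gene, from RefSeq on build GRCm38.p6, with the motif in capitals. Ndufa6, an accessory subunit of complex I, holds it in reverse complement at chr15:82354356-82354385 (gene on the minus strand), centred 80 bases before the start. Sdhb, the iron-sulfur subunit of complex II, holds it in reverse complement at chr4:140961206-140961235 (gene on the plus strand), 51 bases before the start. Cox6a1, the widely expressed form of a complex IV subunit, holds it at chr5:115349101-115349130 (gene on the minus strand), 158 bases before the start. Atp5g2, a gene for subunit c of the ATP synthase ring, holds it at chr15:102671070-102671099 (gene on the minus strand), 38 bases before the start.
Ndufa6: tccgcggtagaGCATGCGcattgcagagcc
Sdhb: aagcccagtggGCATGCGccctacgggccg
Cox6a1: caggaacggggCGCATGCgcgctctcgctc
Atp5g2: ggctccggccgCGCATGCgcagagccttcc

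Values below are normalized log2 intensities of 1 probe per gene, and differences are a treated array minus the untreated array on that scale. They compare a probe with itself, since intensities of different probes are not comparable. Probes printed 10 times on an array set a measurement tolerance of 0.16 (log2) for a difference between 2 arrays, which covers error within an array and not between cultures. It is about 1 SD of such a difference, so a value past it may still be measurement error. Of the 85 subunit genes, 84 had a value on every array and 81 were well above background on all 4. The array medians of net signal lay between 138 and 167.5 scanner units, and 52.2% to 69.7% of probes were detected per array, most on the untreated one.

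Fibroblast identity was checked first. Of 11 fibroblast markers, 10 were detected on the untreated, AR7 and CA77 arrays and 11 on CA39, and their summed linear signal lay between 1033188 and 1251687. With CA39, 7 of the 10 markers detected on all arrays were higher than untreated, among them Fn1 (1.47), Pdgfra (1.19) and Col1a1 (1.06), and 3 were lower. Col1a1 was at -1.04 with AR7 and -0.83 with CA77, where 9 and 7 of the 10 markers were lower. The spots of Pdgfra, Dcn and the epithelial marker Epcam, which was detected only with CA39, had a neighbouring spot that deviated the same way on the same array. Decorin (Dcn), the lowest with CA39, was at 17.15 on untreated and 17.61, 11.46 and 17.46 after AR7, CA39 and CA77, and lumican (Lum) at 14.60, 13.98, 10.39 and 14.91. Of 4 epithelial markers, 2 were detected on untreated, AR7 and CA77 and 3 on CA39, with summed signals of 394, 417, 314 and 1508, respectively, and Cdh1 was not detected on any array. Krt8 differed by -0.04, 2.38 and -0.36 and Krt18 by 0.21, 0.98 and -0.37 after AR7, CA39 and CA77. Both were detected on all arrays and had no neighbouring deviating spot. Pdgfrb, the fibroblast marker detected only with CA39, was at 8.78 there and had none either. Leukocyte, endothelial and muscle markers had summed signals of 80.4 to 113, 490 to 535 and 609 to 958. The part of these markers' differences in the values with CA39 below was not tested.

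With AR7, no subunit gene of 81 lay past 1.5-fold from untreated, against 3.09% of all 20594 detected genes. Differences ran from -0.34 (Ndufb11) to 0.15 (Uqcrq), with a median of -0.08 (SD 0.083 over genes), where all genes had a median of -0.01 and an SD of 0.29. In sign, 75 subunits were lower and 6 higher than on the untreated array, while 53.5% of all genes were lower, and 67 of 81 were lower with the deposited series table. Only 17 subunits were lower by more than the tolerance, which 20.7% of all genes also were, and none was higher by more than it, against 16.1%. The other 64 (79.0%) stayed within it, as 63.2% of all genes did. The subunit genes thus lay slightly lower as a group, with most single differences inside the tolerance.

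With CA39, 1 subunit gene (1.23%) lay past 1.5-fold, against 10.1% of all genes. That gene was Cox7b2, a form of a complex IV subunit known mainly from testis, at 8.80 on untreated and 8.78, 9.62 and 8.74 after AR7, CA39 and CA77. The difference of 0.83 is 1.78-fold and rests on 1 probe. The median over subunits was -0.03 (SD 0.155) beside -0.04 (SD 0.45) over all genes, and 52 subunits were lower and 28 higher, with 55.6% of all genes lower. This tally moved with the scaling, to 75 of 81 lower with 75th percentile scaling and 37 of 81 with the deposited series table. Of the subunits, 14 were lower and 4 higher by more than the tolerance, against 33.4% and 23.6% of all genes, and 63 (77.8%) stayed within it, against 43.1%. With 75th percentile scaling the median over subunits was -0.17 and that over all genes -0.12, so the distance of the subunit genes from untreated with CA39 depends on the scaling.

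With CA77, no subunit gene lay past 1.5-fold, against 3.85% of all genes. The median was -0.08 (SD 0.112), from -0.36 (Cox6b1) to 0.21 (Uqcrq), beside -0.02 (SD 0.29) over all genes. In sign, 64 subunits were lower and 17 higher, while 54.7% of all genes were lower. With the deposited series table, 35 of 81 were lower and the median was 0.02. Beyond the tolerance, 20 were lower and 3 higher, against 25.9% and 17.9% of all genes, and 58 (71.6%) stayed within it, against 56.2%. The comparisons with AR7, CA39 and CA77 share the untreated array, so an error of that array enters all of them.

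**Figure D1:**
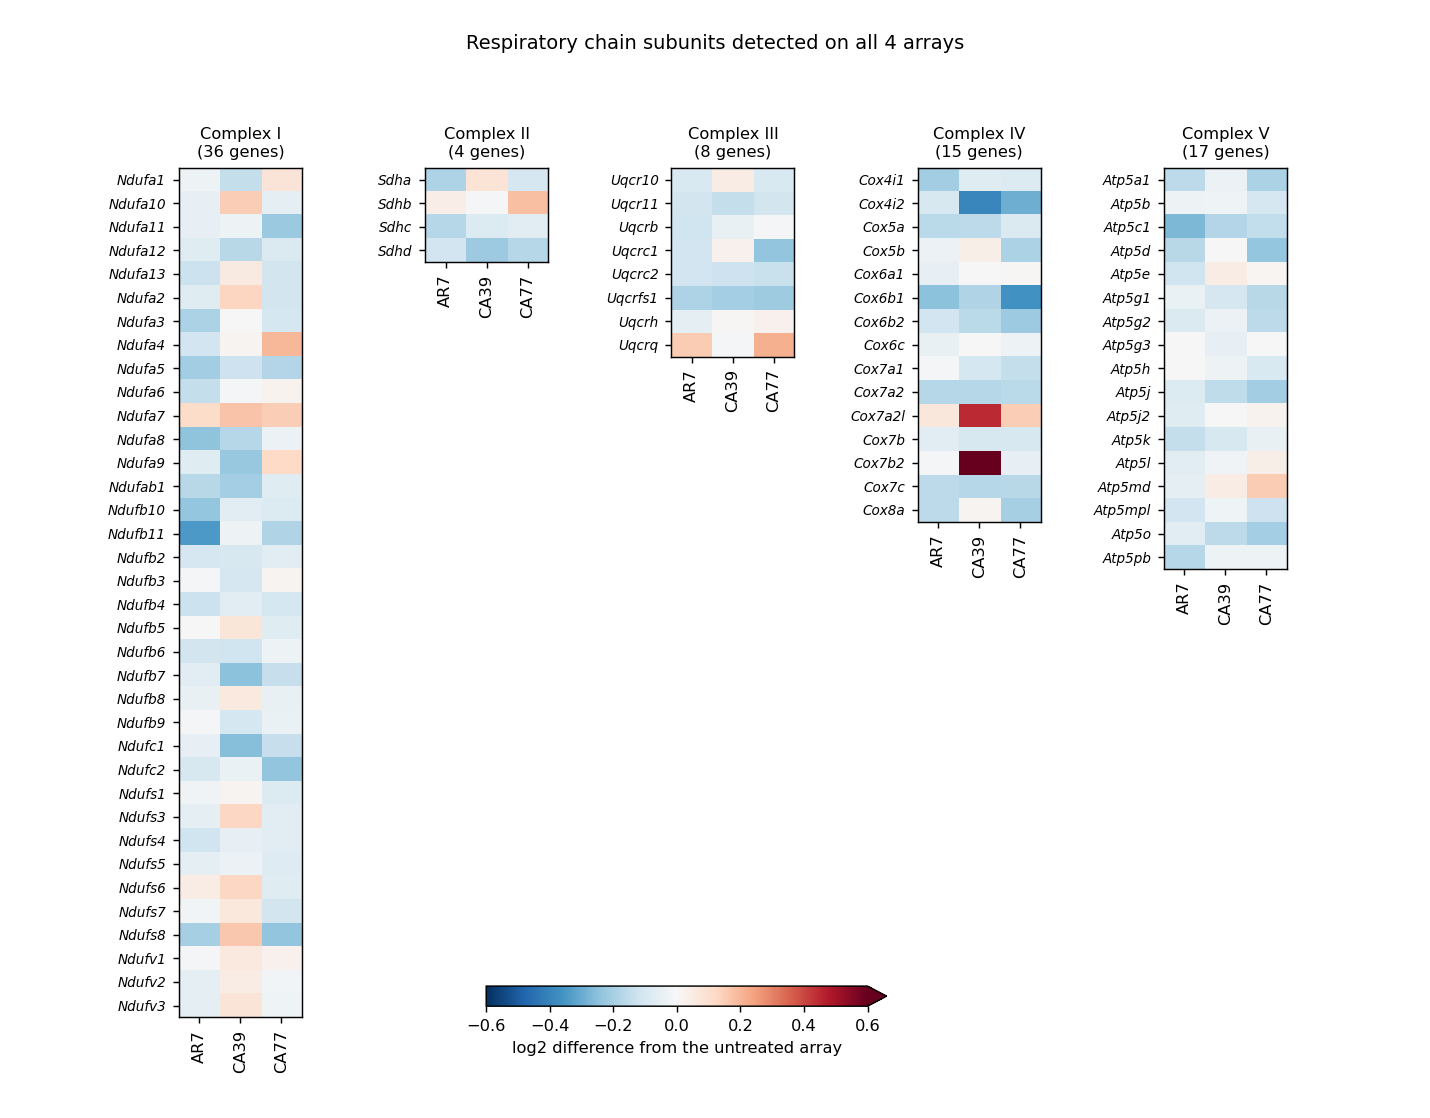
Log2 difference from the untreated array (colour, red higher and blue lower) for 80 of the 81 subunit genes detected on all 4 arrays, 1 row per gene and 1 column per compound, split by complex. Nearly all cells are pale, and the darkest are Cox7b2 (0.83, beyond the colour scale) and Cox7a2l (0.45) with CA39.

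Most subunit genes gave bright spots, so they were also set beside other bright genes. Of the 81, 74 had a mean log2 intensity of at least 14, as did 3933 genes in all. The medians over those 74 were -0.08, -0.03 and -0.08 after AR7, CA39 and CA77, and those over the 3933 genes were -0.0025, 0.0039 and 0.0002. Past 1.5-fold were none of the 74 with any compound, against 0.941%, 3.76% and 0.737% of the bright genes. Of the 74, 68, 47 and 57 were lower than untreated after AR7, CA39 and CA77, where 51.1%, 48.8% and 49.6% of bright genes were. Within the tolerance lay 79.7%, 82.4% and 74.3% of the 74 and 79.4%, 61% and 75.6% of the bright genes. Against bright genes, the subunits thus had a lower median and a higher share of lower genes with each compound, while the share within the tolerance was close with AR7 and CA77 and higher with CA39. The signs against untreated depend on the scaling with CA39 and CA77, as given above, and the comparison with bright genes was not repeated under other scalings. Relative to the median of all genes, the subunit median over 10 alternative settings was -0.09 to -0.04 with CA77 and -0.05 to 0.02 with CA39.

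**Figure D2:**
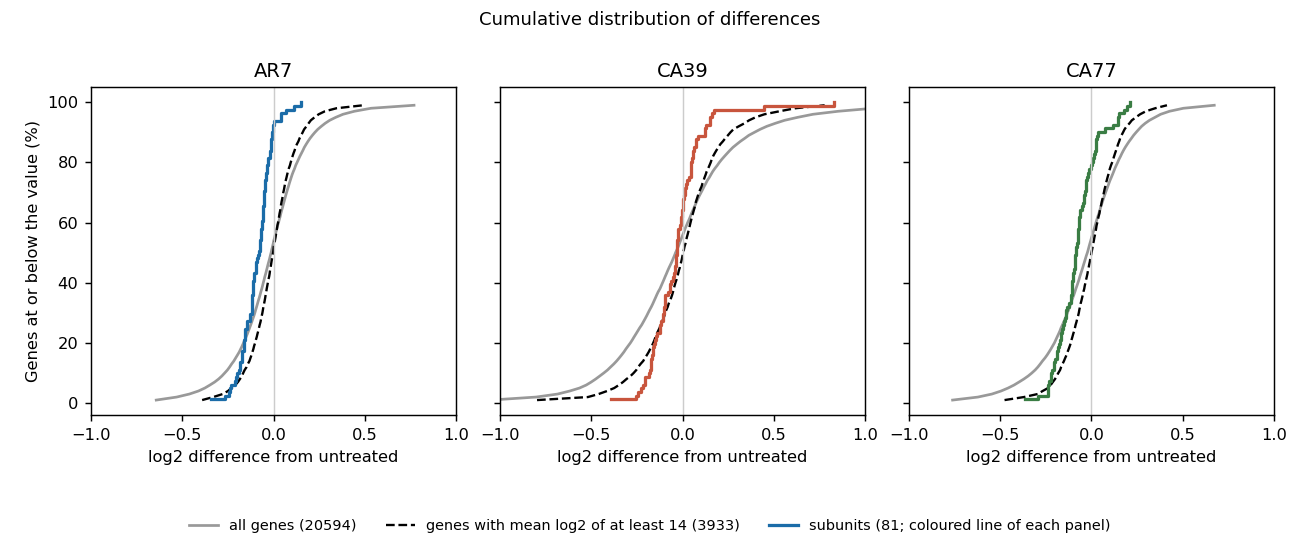
Percent of genes (vertical axis) at or below a log2 difference from untreated (horizontal axis) for all detected genes, for genes with a mean log2 of at least 14 and for the 81 subunits, 1 panel per compound. Lines of all and bright genes join percentiles 1 to 99. The subunit line is steep and over most of its range lies left of the bright genes with AR7 (median -0.08) and CA77 (-0.08), and near them at its middle with CA39 (-0.03).

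By complex, each median against untreated was below 0. With AR7, 35 of 37 genes of complex I were lower, 3 of 4 of complex II, 7 of 8 of complex III, 14 of 15 of complex IV and 16 of 17 of complex V, beside 53.5% of all genes. With CA39 these counts were 21, 3, 5, 10 and 13 (55.6% of all genes) and with CA77 29, 3, 6, 13 and 13 (54.7%). Complex I was at -0.07, -0.03 and -0.07 after AR7, CA39 and CA77. Complex II, with 4 genes, was at -0.14, -0.05 and -0.08. Complex III was at -0.11, -0.03 and -0.10. Complex IV was at -0.10, -0.10 and -0.14, and complex V at -0.08, -0.03 and -0.10. With the deposited series table, complexes I, III and V with CA39 and I, II and V with CA77 had medians of 0.02 to 0.04 instead. Complex IV was at -0.03 with CA39 and -0.02 with CA77 in that table. From spots in the lower part of the array alone, complex IV was at -0.0008 with CA39 and -0.09 with CA77. With 75th percentile scaling, which moved the median of all genes with CA39 to -0.12, complexes I to V with CA39 were at -0.14, -0.21, -0.18, -0.18 and -0.19. The complexes were not tested against each other.

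**Figure D3:**
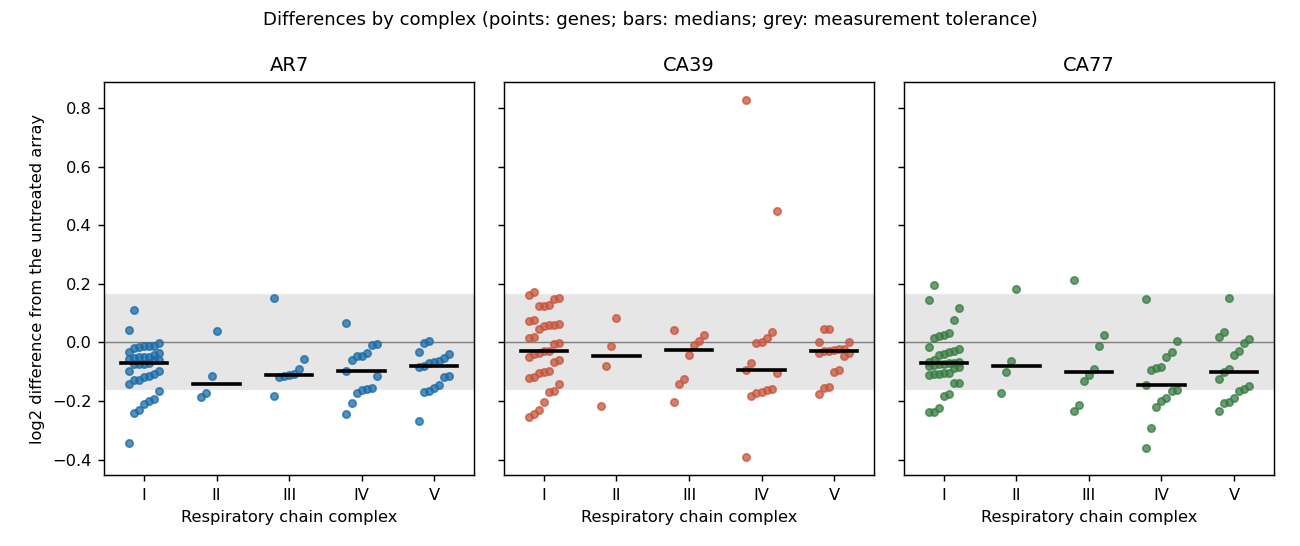
Log2 difference from the untreated array (vertical axis) of each subunit gene (points) by complex (horizontal axis), with the median of each complex (bar) and the measurement tolerance of 0.16 for a single gene (grey band). All medians lie below 0, and the points outside it are mostly just below.

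Complex I takes electrons from NADH through a flavin site and a chain of iron-sulfur clusters in its peripheral arm. Nuclear genes of that core include Ndufv1 and Ndufv2, near the NADH site, and Ndufs1, Ndufs3, Ndufs7 and Ndufs8. Among these, 5 of 6 lay within the tolerance with AR7, between -0.06 (Ndufs3) and -0.01 (Ndufv1), and the exception was Ndufs8, which carries iron-sulfur clusters near the quinone site. Ndufs8 was at 13.55 on untreated and 13.35, 13.71 and 13.31 after AR7, CA39 and CA77. Its differences were -0.20, 0.16 and -0.24, so that CA39 lay on the other side of untreated from AR7 and CA77. With CA39 the other 5 were between 0.02 (Ndufs1) and 0.12 (Ndufs3), and with CA77 between -0.11 (Ndufs7) and 0.03 (Ndufv1).

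The accessory subunits of complex I surround this core. Ndufb11, in the membrane arm, was the lowest subunit of all with AR7, at 16.89 on untreated and 16.55, 16.86 and 16.71 after AR7, CA39 and CA77, a difference of -0.34. A second, dimmer probe of this gene gave -0.27, -0.01 and -0.32 after AR7, CA39 and CA77, so both probes were lower with AR7 and with CA77. Ndufa7 was the highest complex I gene with AR7 (0.11) and CA39 (0.17) and was at 0.15 with CA77. The lowest with CA39 was Ndufc1, in the membrane arm, at 16.42 on untreated and 16.37, 16.17 and 16.28 after AR7, CA39 and CA77. Ndufb4 has near-identical copies in the mouse genome, and its differences of -0.13, -0.06 and -0.11 may include their signal. Ndufa4, counted here by its symbol though its protein is now placed in complex IV, was at 16.95, 16.84, 16.97 and 17.15, which made it the highest gene of complex I with CA77 (0.20). Ndufa4l2, its hypoxia-related paralogue, was well above background only on the untreated array, at 6.42. It was at 6.03, 6.62 and 6.12 after AR7, CA39 and CA77, where it was not well above background. The undetected value with CA39 thus lay above the detected untreated one, and more probes were detected on the untreated array, so no fold or bound is given.

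Within complex I, the gene families were then set side by side, a split chosen after values were seen. With CA39, 9 of 11 Ndufs and Ndufv genes, which code mostly for the peripheral arm, were above untreated, with a median of 0.06, and 8 of 10 Ndufb genes, which code for the membrane arm, were below it, with a median of -0.08, where 55.6% of all genes and 48.8% of bright genes were below. With AR7 the medians were -0.05 and -0.08, and with CA77 they were -0.07 and -0.07. The gap between these families with CA39 was 0.14 (log2) and was 0.08 to 0.16 over 10 alternative settings. Several of these settings leave the genes as they were, so the range is not a check of the split. Of these Ndufs, Ndufv and Ndufb genes, only Ndufs8 (0.162) and Ndufb7 (-0.245) were past the tolerance with CA39. Ndufa genes had medians of -0.09, -0.02 and -0.07 over 14 genes. No gene of these families passed 1.5-fold.

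Complex II, the succinate dehydrogenase that also serves the citric acid cycle, has 4 subunits. Sdha, the flavoprotein that oxidises succinate, was at 15.07 on untreated and 14.89, 15.16 and 14.97 after AR7, CA39 and CA77, and gave the lowest difference of the complex with AR7 (-0.19) and the highest with CA39 (0.08). Sdhb, the iron-sulfur subunit, was at 16.16, 16.20, 16.15 and 16.34, the highest of the complex with AR7 (0.04) and CA77 (0.18). A second probe of Sdhb gave 0.02 and 0.03 there. The membrane anchors were Sdhc, with differences of -0.17, -0.08 and -0.06, and Sdhd, with -0.11, -0.22 and -0.17. A second probe of Sdhc gave -0.18 with each compound, past the tolerance. With so few genes, the median of the complex follows single probes.

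Complex III passes electrons from quinol to cytochrome c. Uqcrfs1, the Rieske iron-sulfur protein, was at 15.61 on untreated and 15.43, 15.41 and 15.40 after AR7, CA39 and CA77. These values were lower than untreated by 0.18 to 0.22, just past the tolerance on each treated array. Uqcrc1, a core protein, differed by -0.11, 0.02 and -0.24. Uqcrc2, the other core protein, was printed at 10 spots, with means of 15.71, 15.59, 15.58 and 15.58 and SDs over the spots of 0.09 to 0.14. Its differences were -0.12, -0.12 and -0.13, with standard errors over the spots of 0.05, 0.04 and 0.05, which cover error within an array and not between cultures. Uqcrq, a small subunit, was at 17.11, 17.26, 17.10 and 17.32, and was the highest subunit with AR7 (0.15) and CA77 (0.21). A second probe of Uqcrq gave 0.06 and 0.12. The highest of the complex with CA39 was Uqcr10 (0.04), whose other probes gave -0.10 and -0.08.

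Complex IV reduces oxygen, and several of its nuclear subunits come in alternative forms from separate genes. Its catalytic core is coded in mitochondrial DNA. Among the nuclear-coded subunits, Cox4i1 was at 17.65 on untreated and 17.44, 17.58 and 17.57 after AR7, CA39 and CA77, and it differed by more than the tolerance only with AR7 (-0.21). Cox5a differed by -0.16, -0.16 and -0.09 and Cox5b by -0.04, 0.04 and -0.19. Cox6b1, which sits on the intermembrane side, was at 14.93, 14.69, 14.75 and 14.57, and its -0.36 with CA77 was the lowest value of any subunit there. It was also the lowest of complex IV with AR7 (-0.24).

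Cox7a2l, which joins complexes III and IV in supercomplexes, stood apart with CA39. It was at 16.73 on untreated and 16.79, 17.18 and 16.87 after AR7, CA39 and CA77, a difference of 0.45 with CA39 against 0.07 and 0.15. The gene had 3 probes. The others gave 0.38 and 0.50 with CA39, -0.00 and 0.12 with AR7 and 0.15 and 0.10 with CA77. All 3 probes were thus past the tolerance with CA39 and none with AR7 or CA77, and none reached 1.5-fold. The related subunit genes Cox7a2 (-0.17, -0.17 and -0.16) and Cox7a1 (-0.01, -0.10 and -0.14), the latter known as the form of heart and muscle, had no positive difference.

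**Figure D4:**
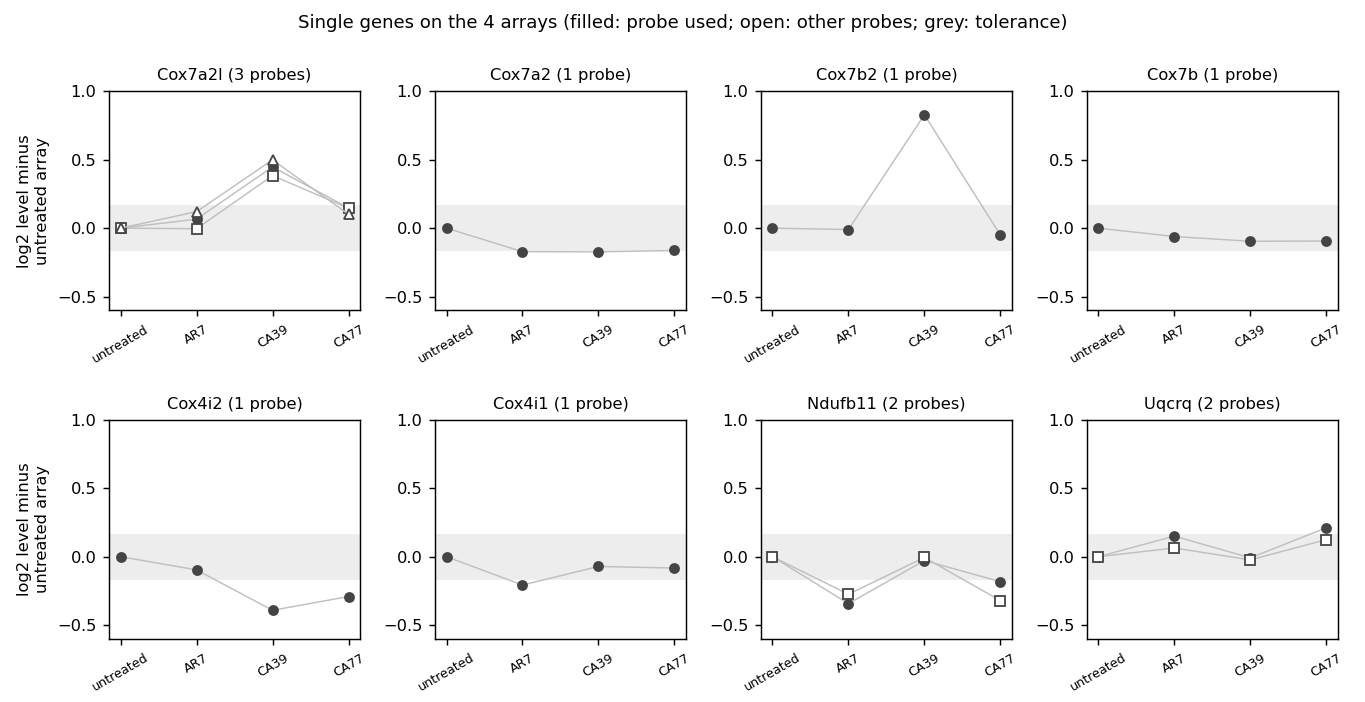
Log2 level of single genes on each array minus that on the untreated array (vertical axis), 1 panel per gene and 1 line per probe, with the measurement tolerance in grey. Cox7a2l was above the band with CA39 by 3 of 3 probes (0.38 to 0.50), Cox7b2 by its 1 probe (0.83), and Cox7a2 and Cox7b were not.

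The other alternative forms were mostly below untreated, many of them within the tolerance. Cox4i2, the hypoxia-related form of subunit 4, was at 9.90 on untreated and 9.81, 9.51 and 9.61 after AR7, CA39 and CA77, and its -0.39 was the lowest subunit value with CA39. Cox6b2, known from testis, differed by -0.11, -0.16 and -0.22. Cox7b, the widely expressed partner of Cox7b2, differed by -0.06, -0.10 and -0.09. Cox6a1 differed by -0.05, 0.00 and 0.00, while Cox6a2, the heart and muscle form, was at 9.28 on untreated, 8.98 with AR7 and 9.02 with CA77. With CA39 the only spot of Cox6a2 was at 11.34 but was marked as an outlier by the scanner software and left out. Cox6a2 is therefore in none of the counts past 1.5-fold. Cox8a differed by -0.16, 0.02 and -0.20, and its paralogues Cox8b and Cox8c were not well above background on any array. Among genes with several probes, Cox7c showed the widest disagreement with CA39, at -0.17 by the probe used and -0.67 by a dim one.

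Complex V has a catalytic head, F1, and a membrane ring, Fo, that turns with the proton flow. In the head, Atp5a1 differed by -0.16, -0.03 and -0.19 after AR7, CA39 and CA77, and Atp5b, the catalytic β subunit, by -0.03, -0.02 and -0.10. Atp5c1, the central stalk γ subunit, was at 17.01 on untreated and 16.74, 16.83 and 16.86 after AR7, CA39 and CA77, the lowest of the complex with AR7 (-0.27) and CA39 (-0.18). A dimmer probe of Atp5c1 gave -0.09, -0.09 and 0.09, all within the tolerance, so the probes differed from each other by more than it after AR7 and after CA77. Atp5d was the lowest with CA77 (-0.23). The ring genes Atp5g1, Atp5g2 and Atp5g3, which code for the same mature protein, differed by -0.04, -0.09 and -0.00 with AR7, by -0.10, -0.04 and -0.05 with CA39, and by -0.17, -0.16 and -0.00 with CA77. At the upper end were Atp5h with AR7 (0.00), Atp5e with CA39 (0.05) and Atp5md with CA77 (0.15), each inside the tolerance.

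Where a subunit gene had further detected probes, most gave a difference within the tolerance of that of the probe used. Most subunit differences were themselves within the tolerance, so this says little about their sign. Over 29 other probes of 22 genes, 26 lay within the tolerance of the main one with AR7, 28 with CA39 and 23 with CA77. Their own medians were -0.14, -0.08 and -0.05. No spot of a member with a value lay in a cluster of neighbouring deviating spots. A spot counted as deviating only past 1 (log2) from all other arrays. The largest member difference from untreated was 0.83 (Cox7b2 with CA39), so this check could not flag members and says nothing about smaller artefacts. The 41 subunits in the upper part of the array had medians of -0.10, -0.03 and -0.07, and the 40 in the lower part -0.07, -0.03 and -0.10. All genes had medians of 0.01, -0.01 and 0.01 in the upper part and -0.03, -0.06 and -0.04 in the lower. The distance of the subunits from all genes thus differed between the parts.

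The compounds, given at the same dose and time, were then compared with each other in 3 pairs. CA77 minus AR7 had a median of 0.00 over the 81 subunits, with 41 subunits higher and 38 lower (53.3% of all genes were lower) and 73 within the tolerance (64.7% of all genes) and 0 past 1.5-fold (2.02% of all genes). The exceptions to the tolerance included Ndufa4, higher with CA77 by 0.31, and Cox4i2, lower by 0.19. CA39 minus AR7 had a median of 0.06, with 55 subunits higher and 26 lower (54.7% of all genes were lower), and 63 within the tolerance (42.5% of all genes). CA77 minus CA39 had a median of -0.03, with 32 higher and 49 lower (48.3% of all genes were lower), and 59 within it (44.9% of all genes). These medians moved with the scaling, and so did those of all genes. With 75th percentile scaling the pair medians were 0.07 for CA77 minus AR7 (20 of 81 lower), -0.02 for CA39 minus AR7 (45 lower) and 0.10 for CA77 minus CA39 (26 lower). With the deposited series table they were 0.09 (14 lower), 0.08 (17 lower) and 0.03 (34 lower). Relative to the median of all genes, CA77 minus AR7 was at 0.01 to 0.07 over 10 alternative settings. CA39 minus AR7 was at 0.04 to 0.10 and CA77 minus CA39 at -0.04 to 0.03 on that measure. In both pairs with CA39, Cox7b2 was the only subunit past 1.5-fold (0.84 and -0.88), against 11.8% and 10.9% of all genes. By complex, the pair medians ran from -0.05 to 0.10, and without replicate cultures no interval of these differences can be given.

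Genes that act with the chain were described from lists. Among 46 measured assembly and maturation factors, 43 were detected on all arrays, none of these passed 1.5-fold from untreated with any compound (3.09%, 10.1% and 3.85% of all genes did), and the medians were -0.06, -0.05 and -0.01. Ndufaf5, an assembly factor of complex I, was at 10.60 on untreated and 10.20, 10.15 and 10.51 after AR7, CA39 and CA77. Ndufaf5 was thus lower by 0.40 and 0.45 with AR7 and CA39 and within the tolerance with CA77. Sdhaf3, an assembly factor of complex II, was at 10.89, 10.62, 11.29 and 10.86, the highest of the list with CA39 (0.40). Between compounds Sdhaf3 was past 1.5-fold in CA39 minus AR7 (0.66), as 11.8% of all genes were. Cox18, which helps to insert a complex IV subunit, was lowest with CA77 (-0.41). The 12 factors found by the rule had medians of -0.13, -0.06 and -0.06.

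Cytochrome c (Cycs), the carrier between complexes III and IV, was at 17.14 on untreated and 16.97, 16.71 and 17.02 after AR7, CA39 and CA77. Its difference with CA39 was -0.43, and those with AR7 and CA77 were -0.17 and -0.12. Cyc1, the cytochrome of complex III, differed by 0.03, -0.09 and -0.22. Subunits coded in mitochondrial DNA were not analysed here.

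Among 14 regulators of mitochondrial biogenesis, none passed 1.5-fold from untreated. With AR7, CA39 and CA77, 3.09%, 10.1% and 3.85% of all genes did, so a list this short would hold few or none. With CA39, 8 (57.1%) were lower by more than the tolerance, against 33.4% of all genes, with a list median of -0.17. With AR7 and CA77, 2 and 3 of the 14 were lower by more than the tolerance, against 20.7% and 25.9% of all genes, and the medians were -0.02 and -0.01. Ppargc1b, which codes for PGC-1β, was at 9.26 on untreated and 9.50, 8.71 and 9.31 after AR7, CA39 and CA77, the lowest of the list with CA39 (-0.55). Between compounds, Ppargc1b was past 1.5-fold in CA39 minus AR7 (-0.78) and in CA77 minus CA39 (0.60), as 11.8% and 10.9% of all genes were. Ppargc1a, which codes for PGC-1α, was at 12.05, 11.62, 12.02 and 11.72, so AR7 and CA77 differed by -0.43 and -0.33 and CA39 was not beyond the tolerance. Gabpa, which codes for the DNA-binding subunit of GABP, was the highest of the list with CA39 and differed by -0.04, 0.34 and 0.12. Gabpb1, which codes for its partner subunit, differed by -0.03, -0.31 and -0.39. Nrf1 differed by 0.06, -0.12 and 0.10, and Tfam, the factor that packs and transcribes mitochondrial DNA, by -0.04, -0.18 and 0.22.

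The 13 citric acid cycle genes had medians of -0.08, -0.11 and -0.08 and none passed 1.5-fold, and at the shares of all genes above so short a list would hold few or none. Citrate synthase (Cs) differed by 0.02, 0.05 and 0.02. The 7 carriers and channels had medians of -0.14, -0.04 and -0.09, again with none past 1.5-fold, and Slc25a5, an ADP/ATP carrier, was lowest with each compound (-0.21, -0.36 and -0.31).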

How the data were processed

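Total RNA of 4 NIH-3T3 cultures was labelled with Cy3 and read on 1-colour Agilent arrays by the authors, with Feature Extraction 10.7.3.1. They deposited linear intensity, local background and quality marks for each spot. The methods and labels name oligo and RMA, but the deposited series table holds background-subtracted intensity without scaling and served as an alternative. Here, spot medians were corrected with normexp (limma 3.58.1, R 4.3.3), quantile normalized and put on the log2 scale from the deposited intensities. Control and flagged spots were left out. The brightest probe of a gene was used, and detection required that more than 50% of a probe's spots passed the scanner's background test. Accessions were matched to RefSeq (GRCm38.p6), which named 26281 of 26640 probes with a curated messenger RNA accession. The array design cites another build, so no probe coordinates are given. Members and lists were chosen with earlier results of these data known. Named were the extremes of each complex, genes past 1.5-fold, the main nuclear-coded subunits, alternative forms and undetected members, and a few further genes chosen after their values were seen. One gene that the naming rule covers is not reported here. The NRF1 letters were shortened after a first search. The array number limits the precision, since 1 array per group leaves the spread between cultures unknown.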

Additional observations from a re-analysis of the deposited data

How the results depend on the processing

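Over 10 alternative settings (other scalings, background steps, filters, probe choices and array regions), the median of each complex with AR7 stayed below 0. The setting without clustered spots removed no member, so it repeats the main complex medians. With 75th percentile scaling, complexes I to V with CA39 were at -0.14, -0.21, -0.18, -0.18 and -0.19 against untreated, and at 0.10, 0.16, 0.12, 0.08 and 0.13 for CA77 minus CA39. That scaling moved the median of all genes with CA39 to -0.12. The subunit median stayed below 0 with AR7 (-0.16 to -0.07), while with CA39 (-0.17 to 0.02) and CA77 (-0.10 to 0.02) it turned positive with the deposited series table. Relative to the median of all genes it was -0.11 to -0.05 with AR7, -0.09 to -0.04 with CA77 and -0.05 to 0.02 with CA39. Of 150 complex medians against untreated 6 changed sign, all with the deposited series table, and of 150 between compounds 23 did. At a 2-fold threshold, 0 subunits were past it with CA39, but with the deposited series table Cox7b2 was at 1.05. No paired analysis was possible because each group has 1 array and no replicate can be left out.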
